A study of Homo sapiens with 18 samples.

Results

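Integrins of white blood cells are described here through 10 genes chosen by name, ITGAM, ITGAX, ITGAL, ITGB2, ITGA4, ITGB7, ITGB1, ITGA5, ITGA6 and ITGAE, out of 58037 gene IDs in a table of raw RNA-Seq counts. Each of the 10 matched 1 gene ID, and all 10 passed the filter on low counts in every fit. The rule lists them by name and uses no measured value, but they were chosen with earlier results of these data known. RNA-Seq was performed on 3 human acute myeloid leukemia (AML) cell lines after 16 h of treatment or as controls, in 18 libraries of 8 groups. MOLM13 cells, which carry the fusion MLL-AF9, were treated with 500 nM SNDX-50469 (a Menin inhibitor that the labels call VTP50469), with 500 nM OTX015 (a BET protein inhibitor), with 500 nM of each, or with neither, as 2 libraries per group. MV4-11 cells, which carry a rearranged MLL gene, were treated with 1000 nM SNDX-50469 or left as controls, as 2 libraries per group. Their sample titles number these libraries 1 and 2, as is done here, while their descriptions number them 2 and 3. OCI-AML3 cells, which have germline MLL and mutant NPM1, were treated with 500 nM SNDX-50469 or left as controls, as 3 libraries per group. MV4-11 cells grew in IMDM and the other lines in RPMI medium, each with serum. Every line is a single established line, so nothing here measures variation between patients, and what the control cultures received is not given beyond the word control. By the study's account the libraries of MOLM13 and of OCI-AML3 are biologic replicates. No such statement was found for MV4-11, so its p-values measure only the spread between these libraries, which may be technical.

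An integrin is a surface receptor made of 1 alpha and 1 beta chain, and each chain needs a partner to reach the membrane. The beta chain of ITGB2 pairs with the alpha chains of ITGAL (LFA-1), ITGAM (CD11b, Mac-1) and ITGAX (CD11c), which bind ICAM proteins, complement fragments and fibrinogen and serve firm adhesion and phagocytosis. ITGA4 pairs with ITGB1 to form VLA-4, the receptor for VCAM1 and fibronectin that holds hematopoietic cells in the marrow, or with ITGB7 to form a gut-homing receptor for MADCAM1. ITGA5 and ITGA6 pair with ITGB1 to form fibronectin and laminin receptors, and ITGAE pairs with ITGB7 to bind E-cadherin. ITGAM and ITGAX transcripts are widely used as markers of myeloid maturation.

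Menin tethers MLL to chromatin and MEIS1 is a classic target of that complex, while PU.1 is a myeloid factor that is known to act on the ITGAM promoter. For these reasons promoters were searched on both strands for the letters GAGGAA, a PU.1 core, and TGACAG, a MEIS core, which do not overlap each other as printed. Promoters run from 250 bases before to 50 bases after a RefSeq start site on GRCh38.p14, and 7 of the 10 genes had one (ITGAX, ITGAL and ITGB2 did not match). Shown 5′ to 3′ on the gene's own strand are ITGAM (chr16:31259725-31260024, plus strand) and ITGB7 (chr12:53207202-53207501, minus strand), which both rose under SNDX-50469 in the MLL-rearranged lines, and ITGA4 (chr2:181457136-181457435, plus strand), which fell under the combination. Capitals mark the searched letters or their reverse complement.
ITGAM: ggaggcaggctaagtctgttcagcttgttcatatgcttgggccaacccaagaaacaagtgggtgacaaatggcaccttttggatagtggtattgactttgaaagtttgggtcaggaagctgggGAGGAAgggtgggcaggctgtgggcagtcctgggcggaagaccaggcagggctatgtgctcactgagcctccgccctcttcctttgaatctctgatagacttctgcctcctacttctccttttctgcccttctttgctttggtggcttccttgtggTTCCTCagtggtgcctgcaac
ITGB7: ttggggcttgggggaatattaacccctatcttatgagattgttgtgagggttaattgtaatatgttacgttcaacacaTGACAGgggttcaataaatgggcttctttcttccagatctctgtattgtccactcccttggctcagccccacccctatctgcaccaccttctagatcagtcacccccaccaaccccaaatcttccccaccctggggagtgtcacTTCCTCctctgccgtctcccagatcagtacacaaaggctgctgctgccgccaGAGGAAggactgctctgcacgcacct
ITGA4: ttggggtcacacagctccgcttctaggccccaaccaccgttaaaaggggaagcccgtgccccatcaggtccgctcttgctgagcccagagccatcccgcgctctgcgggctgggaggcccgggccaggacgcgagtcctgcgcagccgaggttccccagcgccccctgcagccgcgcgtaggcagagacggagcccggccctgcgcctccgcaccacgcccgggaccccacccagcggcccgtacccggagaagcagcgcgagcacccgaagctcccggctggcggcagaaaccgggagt
The ITGAM promoter held 2 PU.1 cores and 0 MEIS cores. The ITGB7 promoter held 2 PU.1 cores and 1 MEIS core, and the ITGA4 promoter held neither. Among those not shown, the promoters of ITGA5 and ITGA6, which rose under the combination, held neither. That of ITGAE, which did not pass under either agent or the combination, held 1 PU.1 core and 1 MEIS core. For ITGB1, 1 promoter held 1 PU.1 core and 0 MEIS cores, and another held neither. Of 35116 RefSeq promoters of this length, 27.9% held the PU.1 letters and 15.8% the MEIS letters, so such matches are common and are given as a description only.

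The libraries held 19320216 to 23684811 counts in MOLM13, 20730486 to 30090830 in MV4-11 and 49881047 to 59711884 in OCI-AML3. Levels are CPM (counts scaled to a common library size, with TMM factors over all 18 libraries), and group levels are mean ± SD. The targets of the drugs served as a check of the labels. MEIS1 was at 6.60 ± 0.26 CPM in SNDX-50469-treated and 40.8 ± 3.68 CPM in control MOLM13 cells (n = 2 each), and HEXIM1, a marker of BET inhibition, was at 229 ± 1.53 CPM under OTX015 and 54.0 ± 1.57 CPM in controls. Under the combination HEXIM1 was at 323 CPM, but MEIS1 was at 29 CPM, well above its level under SNDX-50469 alone, and OTX015 alone left it at 49.6 CPM. With SNDX-50469, MEIS1 was at 21.8 CPM in MV4-11 (80.2 CPM in controls) and 25.4 CPM in OCI-AML3 (35.9 CPM in controls). Summed CPM of 9 myeloid markers was 943 to 3606 over all libraries, and none of the 9 was at 0 in any group, although CD14 was under 1 CPM in 4 of the 8 groups. Other lineages were low but not all absent. The T cell marker CD3E and the erythroid gene HBB were at or near 0 in all groups. In contrast, CD3D was at 6.62 CPM in MOLM13 controls and NKG7 at 60.9 CPM in MV4-11 controls. The epithelial markers KRT8 and KRT18 were at 8.55 and 6.52 CPM in MV4-11 controls. MV4-11 control replicate 1 stood apart with 10.3% of its counts from mitochondrial genes, against 5.6% in replicate 2. Counts from bulk RNA cannot tell fewer cells of a type apart from less RNA per cell.

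In SNDX-50469-treated MOLM13 cells 3 of the 10 integrin genes rose and 0 fell, and 7 did not pass. To pass, a gene needed an adjusted p under 0.05 in edgeR and a log2 fold change of 0.322 or more either way, the fold limit that the study used. Over all 14360 tested genes, 13.3% passed both limits, 1158 higher and 752 lower. ITGAM had 8.17 and 8.48 CPM in treated libraries, against 3.42 and 4.04 CPM in controls, which gave 1.19 ± 0.15 on the log2 scale (SE; edgeR adjusted p = 2.25e-09). ITGAX had 9.56 and 7.87 CPM in treated libraries, against 4.40 and 3.99 CPM in controls, which gave 1.08 ± 0.14 (edgeR adjusted p = 1.18e-08). The largest change was in ITGB7, with 18.5 and 17.4 CPM in treated libraries, against 6.08 and 6.53 CPM in controls (1.54 ± 0.11, edgeR adjusted p = 2.29e-17). For all 3 genes, which had already passed, the treated libraries lay above both controls, and the share of all genes without overlap was not counted.

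The abundant members moved little in the same MOLM13 comparison. ITGAL had 507 and 523 CPM in treated libraries, against 435 and 468 CPM in controls (0.22 ± 0.04), and ITGB2 had 578 and 571 CPM, against 505 and 521 CPM in controls (0.19 ± 0.04). Their adjusted p values were under 0.05 but their fold changes were not large enough to pass, as was also true of ITGA5 (0.26 ± 0.04) and ITGB1 (-0.31 ± 0.05). ITGB1 lay just short of the fold limit and passed as lower when tested with DESeq2 (-0.33, adjusted p = 4.56e-07), without the filter on low counts (-0.35), with all 18 libraries in 1 fit (-0.34) and without MOLM13 control replicate 1 (-0.35). With no fold limit 7 of the 10 integrin genes passed, 6 higher and 1 lower, as did 4691 of all 14360 tested genes. ITGA4 (-0.02 ± 0.05) and ITGAE (0.01 ± 0.10) had adjusted p values of 0.793 and 0.936. ITGA6, a gene of few reads here, had 1 and 15 counts in treated libraries, against 8 and 12 counts in controls, and its change of -0.42 ± 0.58 became -3.24 without treated replicate 2 (edgeR adjusted p = 0.0234) and 0.44 without treated replicate 1.

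**Figure D1:**
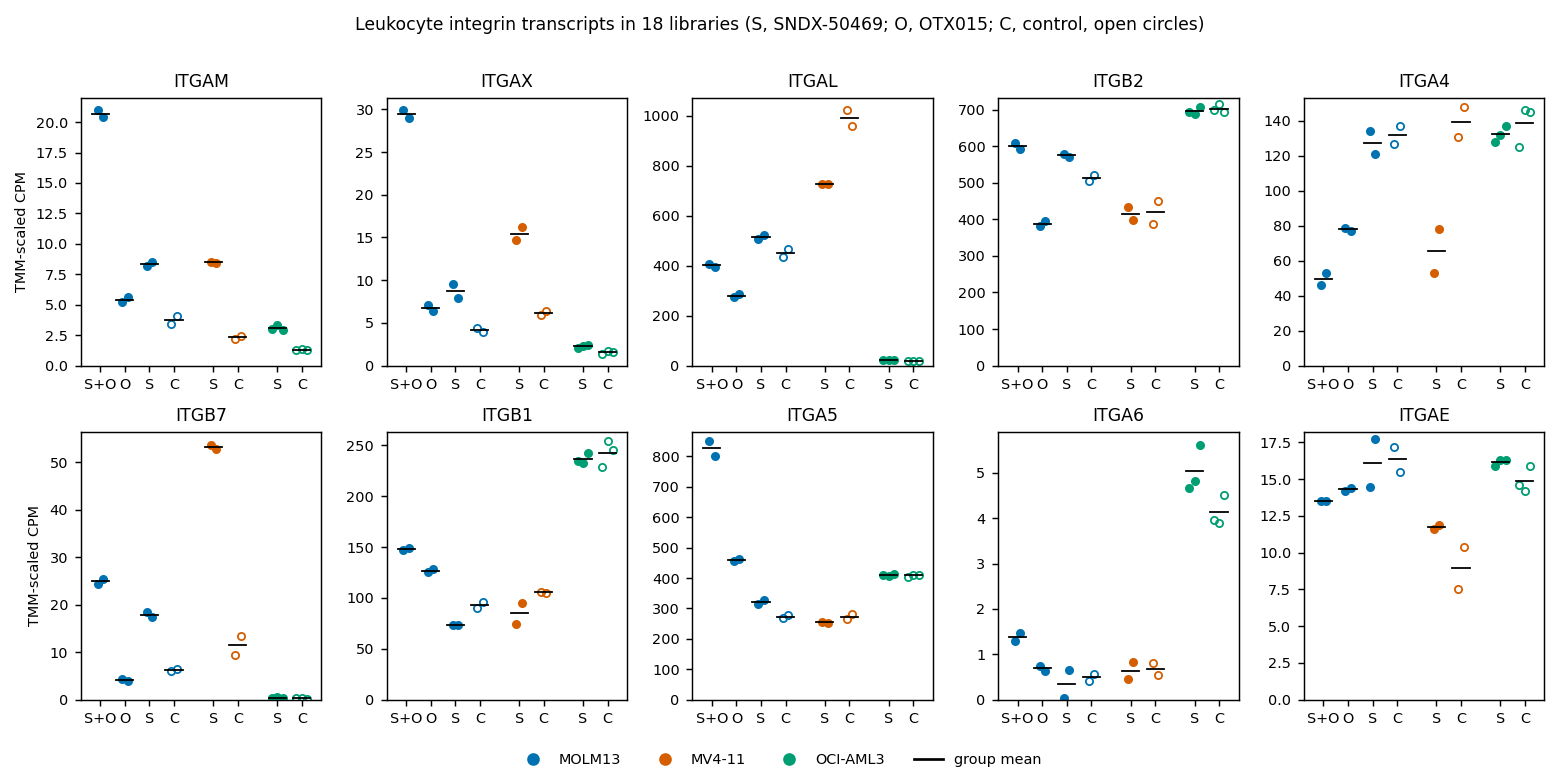
TMM-scaled CPM of the 10 integrin genes (1 panel each, linear axes from 0) in each of the 18 libraries, with treated groups left of their control and short lines for group means. Within MOLM13, ITGAM, ITGAX and ITGB7 are highest under SNDX-50469 with OTX015 (20.7, 29.4 and 24.9 CPM on average), and ITGAL and ITGB7 are near the axis in OCI-AML3.

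In SNDX-50469-treated MV4-11 cells 3 integrin genes rose and 1 fell, where 20.7% of 15486 tested genes passed. ITGB7 had 53.7 and 52.8 CPM in treated libraries, against 9.38 and 13.5 CPM in controls (2.23 ± 0.19, edgeR adjusted p = 1.04e-06), its highest level in any group. ITGAM had 8.52 and 8.47 CPM in treated libraries, against 2.22 and 2.45 CPM in controls (1.87 ± 0.23, edgeR adjusted p = 3.21e-05). ITGAX had 14.7 and 16.2 CPM in treated libraries, against 5.90 and 6.34 CPM in controls (1.35 ± 0.19, edgeR adjusted p = 0.000122). ITGA4 fell, with 52.9 and 78.0 CPM in treated libraries, against 131 and 148 CPM in controls (-1.07 ± 0.18, edgeR adjusted p = 0.000549). None of these 4 genes, which had already passed, overlapped between the groups, and the share of all genes without overlap was not counted. Without control replicate 1, the library with the high mitochondrial share, the same 4 passed (ITGB7 1.97, ITGAM 1.79, ITGAX 1.28, ITGA4 -1.18), while the count over all genes fell to 1798 without it and to 1637 without treated replicate 1, against 3208 with every library.

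Other MV4-11 values were less certain. ITGAL, the most abundant alpha chain, had 726 CPM in each treated library, against 1022 and 961 CPM in controls (-0.43 ± 0.16), and its edgeR adjusted p of 0.0744 did not pass, although it did in DESeq2 (-0.44, adjusted p = 0.0164) and in the fit of all 18 libraries (-0.45, adjusted p = 2.32e-06). ITGB1 (-0.29 ± 0.16, edgeR adjusted p = 0.206) and ITGAE (0.40 ± 0.20, edgeR adjusted p = 0.180) did not pass either, but ITGB1 did without treated replicate 2 (-0.49, adjusted p = 0.0424) and ITGAE with all 18 libraries in 1 fit (0.36, adjusted p = 0.0221). ITGB2, ITGA5 and ITGA6 had log2 fold changes between -0.08 and 0.00, with standard errors of 0.16, 0.15 and 0.50. NKG7, a marker of cytotoxic lymphocytes, was at 106 CPM in treated and 60.9 CPM in control MV4-11 cells, while CD3D and CD3E were at 0 in both. The stromal gene COL1A1 was at 0.982 CPM in treated and 0.0823 CPM in control cells. The epithelial genes KRT8 and KRT18 were at 12.2 and 7.51 CPM in treated and 8.55 and 6.52 CPM in control cells. Their part in the integrin values was not tested.

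In SNDX-50469-treated OCI-AML3 cells 3 integrin genes rose and 0 fell, where 13.1% of 16611 tested genes passed. ITGAM had 3.04, 3.37 and 2.95 CPM in treated libraries, against 1.29, 1.37 and 1.29 CPM in controls (1.251 ± 0.11, edgeR adjusted p = 1.32e-06). ITGAX had 2.08, 2.34 and 2.36 CPM in treated libraries, against 1.37, 1.77 and 1.56 CPM in controls (0.53 ± 0.12, edgeR adjusted p = 0.00336). ITGAL had 22.2, 23.1 and 23.0 CPM in treated libraries, against 17.6, 17.9 and 17.8 CPM in controls (0.36 ± 0.04, edgeR adjusted p = 9.59e-06). The treated libraries lay above all controls for these 3 genes, which had already passed, and the share of all genes without overlap was not counted. ITGB7 was scarce, with 22, 36 and 25 counts in treated libraries, against 18, 17 and 16 counts in controls (0.62 ± 0.26, edgeR adjusted p = 0.0827). ITGA6 (0.29 ± 0.09, edgeR adjusted p = 0.0255) was under the fold limit, which it passed without control replicate 3 (0.36) or treated replicate 1 (0.34), and with no scaling factors (0.34). The other 5 genes had log2 fold changes between -0.06 and 0.11, and edgeR adjusted p values of 0.0920 or more. Other markers moved here too. COL1A1 was at 0.221 CPM in treated and 0.0182 CPM in control cells, COL1A2 at 1.27 CPM in treated and 0.787 CPM in control cells, and NKG7 at 1.65 CPM in treated and 2.32 CPM in control cells, while 1 of 9 myeloid markers passed as higher and 4 as lower (summed 943 to 957 CPM, against 1009.9 to 1097 CPM in controls). Their part in the integrin values was not tested.

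ITGAM and ITGAX rose under SNDX-50469 in all 3 lines, ITGB7 in both MLL-rearranged lines. Whether OCI-AML3 and MOLM13 cells, treated at the same dose, differed in response was tested directly. Of the 10 integrin genes 0 passed in edgeR, where 4.10% of 17597 tested genes did, and 0 passed in DESeq2 and in limma-voom. These fits held the MV4-11 libraries too. In edgeR the common coefficient of biological variation was 6.14% in the shared fit. Fitted apart, it was 3.06% in MOLM13, 3.15% in OCI-AML3 and 13.2% in MV4-11. The wider spread makes a difference harder to pass, so this result does not show equal responses. The share of all tested genes at an unadjusted p below 0.05 was not counted, and among the 10 integrin genes there were 6. ITGB7 had the largest difference among these, -0.90 ± 0.32 for OCI-AML3 minus MOLM13 (edgeR adjusted p = 0.145), and it passed when either MV4-11 control was left out of the shared fit (-0.89, adjusted p = 0.0481 without MV4-11 control replicate 1, and -0.91, adjusted p = 0.0422 without replicate 2). ITGAX differed by -0.52 ± 0.19 (edgeR adjusted p = 0.145) and ITGAM by 0.09 ± 0.17 (edgeR adjusted p = 0.881). ITGA6 passed without MOLM13 SNDX-50469 replicate 2 (3.62, adjusted p = 0.0475), which left a library of 1 count. MV4-11 cells received another dose in another medium, so their response was set side by side with the others and not tested against them.

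**Figure D2:**
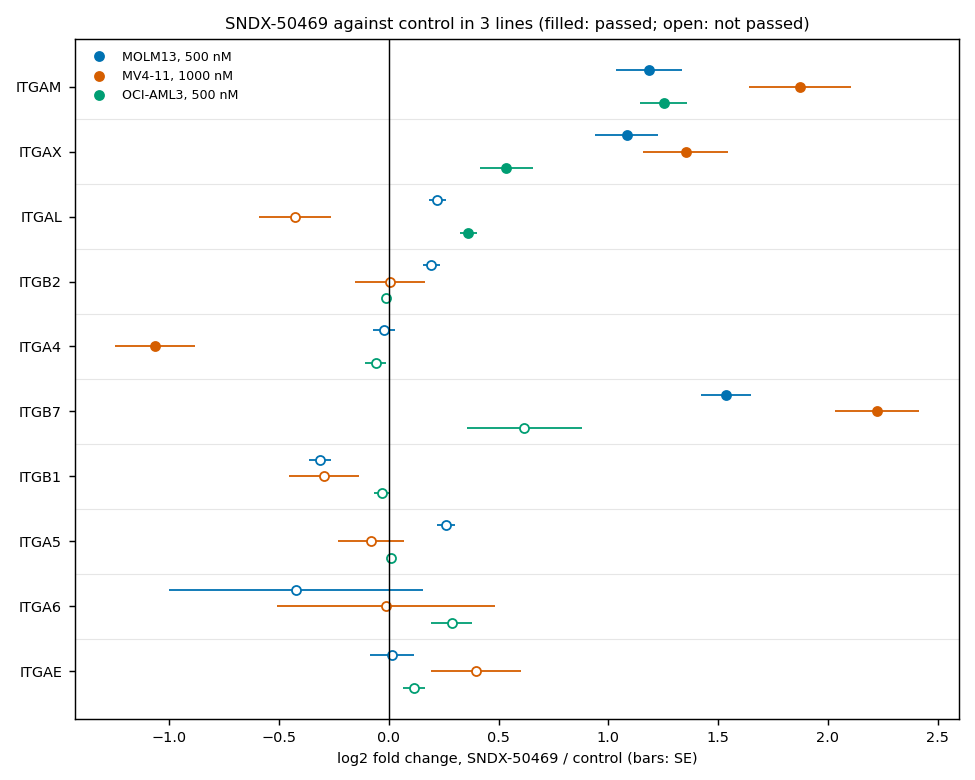
Log2 fold change (x axis) of each integrin gene in SNDX-50469-treated cells over control cells of MOLM13, MV4-11 and OCI-AML3, with SE bars. ITGAM and ITGAX passed in all 3 lines, and ITGA4 passed as lower in MV4-11 (-1.07, with -0.02 in MOLM13 and -0.06 in OCI-AML3).

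OTX015 alone changed 8 of the 10 integrin genes in MOLM13 cells, 4 higher and 4 lower, where 48.1% of all tested genes passed. ITGB2 and its main alpha chain fell, as did ITGA4 and ITGB7. ITGAL had 274 and 287 CPM under OTX015, against 435 and 468 CPM in controls (-0.66 ± 0.04, edgeR adjusted p = 1.82e-22). ITGB2 had 381 and 394 CPM under OTX015, against 505 and 521 CPM in controls (-0.38 ± 0.04, edgeR adjusted p = 1.51e-13). ITGA4 had 78.9 and 76.9 CPM under OTX015, against 127 and 137 CPM in controls (-0.74 ± 0.05, edgeR adjusted p = 3.22e-19), and ITGB7 had 4.44 and 3.92 CPM, against 6.08 and 6.53 CPM in controls (-0.57 ± 0.15, edgeR adjusted p = 0.000912).

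ITGA5 and ITGB1, which together form a fibronectin receptor, rose under OTX015, unlike ITGA4 of VLA-4. ITGA5 had 455 and 462 CPM, against 269 and 277 CPM in controls (0.77 ± 0.04, edgeR adjusted p = 5.96e-26). ITGB1 had 126 and 128 CPM, against 90.5 and 96.0 CPM in controls (0.47 ± 0.05, edgeR adjusted p = 3.19e-13). ITGAM (0.56 ± 0.16, edgeR adjusted p = 0.00229) and ITGAX (0.72 ± 0.15, edgeR adjusted p = 4.22e-05) rose as well. None of these 8 genes overlapped between OTX015 and control libraries. They had already passed the test, and the share of all tested genes without overlap was not counted. ITGB7 rose under SNDX-50469 and fell under OTX015. Among other markers in OTX015-treated MOLM13 cells, NKG7 was at 10.6 CPM, against 38.9 CPM in controls, and CD3D at 1.06 CPM, against 6.62 CPM in controls, while 6 of 9 myeloid markers passed as lower and 1 as higher (summed 1253 to 1265 CPM, against 1634 to 1635 CPM in controls). Their part in the integrin values was not tested.

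With both agents, 6 integrin genes rose and 1 fell against the controls, where 62.1% of all tested genes passed. ITGAX had 29.9 and 29.0 CPM under the combination, against 4.40 and 3.99 CPM in controls (2.81 ± 0.12, edgeR adjusted p = 1.43e-30). ITGAM had 21.0 and 20.4 CPM under the combination, against 3.42 and 4.04 CPM in controls, a 5.52-fold change (2.46 ± 0.13, edgeR adjusted p = 4.71e-26). ITGB7 had 24.4 and 25.5 CPM under the combination, against 6.08 and 6.53 CPM in controls (1.98 ± 0.11, edgeR adjusted p = 1e-24). These are the highest levels of ITGAM and ITGAX in any of the 8 groups.

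ITGA5 had 850.1 and 802 CPM under the combination, against 269 and 277 CPM in controls, a 3.02-fold change (1.59 ± 0.04, edgeR adjusted p = 4.42e-43). ITGB1 had 147 and 149 CPM under the combination, against 90.5 and 96.0 CPM in controls (0.66 ± 0.05, edgeR adjusted p = 1.51e-19). ITGA4 fell, with 46.1 and 52.9 CPM under the combination, against 127 and 137 CPM in controls (-1.42 ± 0.06, edgeR adjusted p = 2.9e-32). VLA-4 and the ITGA5 receptor share the ITGB1 chain, and the transcripts of their alpha chains moved in opposite directions. ITGA6 had 24 and 29 counts under the combination, against 8 and 12 counts in controls (1.46 ± 0.46, edgeR adjusted p = 0.00347), and it no longer passed without control replicate 1 (1.24, adjusted p = 0.0527). ITGAL (-0.17 ± 0.04), ITGB2 (0.22 ± 0.04) and ITGAE (-0.28 ± 0.11) stayed under the fold limit, which ITGAE passed without control replicate 2 (-0.36, edgeR adjusted p = 0.0119) and ITGB2 in limma-voom with quantile normalization (0.34, adjusted p = 1.66e-11). In the same comparison NKG7 was at 16.1 CPM under the combination, against 38.9 CPM in controls, CD3D at 1.90 CPM, against 6.62 CPM in controls, and COL1A1 at 2.73 CPM, against 0.616 CPM in controls. Of the 9 myeloid markers 3 passed as higher and 5 as lower (summed 1540.4 to 1562 CPM, against 1634 to 1635 CPM in controls), and the part of these genes in the integrin values was not tested.

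**Figure D3:**
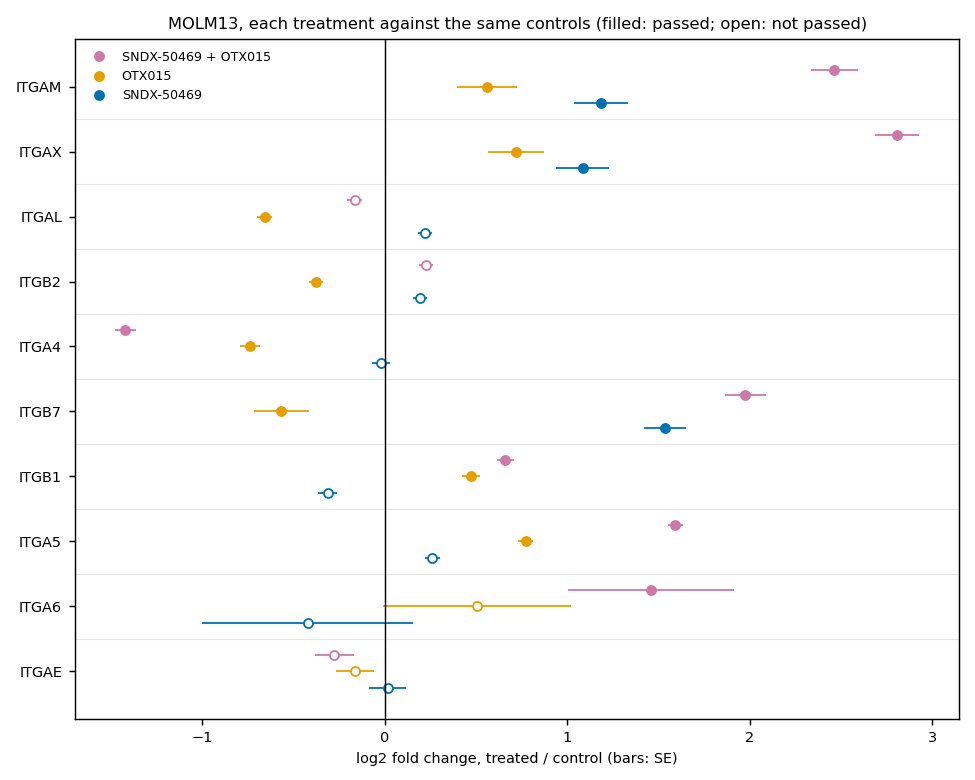
Log2 fold change (x axis) with SE bars of each integrin gene in MOLM13 cells under SNDX-50469 with OTX015, OTX015 or SNDX-50469, all over the same 2 control libraries. ITGA4 falls to -1.42 and ITGA5 rises to 1.59 under the combination, and ITGB7 lies left of 0 under OTX015 alone (-0.57).

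Set against SNDX-50469 alone, the combination raised 6 integrin genes and lowered 2, where 57.0% of all tested genes passed. ITGAX (1.72 ± 0.10), ITGA5 (1.33 ± 0.04), ITGAM (1.28 ± 0.11), ITGB1 (0.97 ± 0.05) and ITGB7 (0.44 ± 0.09) rose, and ITGA4 (-1.40 ± 0.06) fell. ITGAL fell as well (-0.39 ± 0.04, edgeR adjusted p = 2.09e-13), but limma-voom with quantile normalization put it under the fold limit (-0.30). ITGAE (-0.29 ± 0.11) was under the fold limit, which it passed without SNDX-50469 replicate 1 (-0.43). ITGA6 rose by 1.88 ± 0.48 over libraries of 1 and 15 counts, and did not pass without SNDX-50469 replicate 1 (1.01, adjusted p = 0.0697).

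Set against OTX015 alone, the combination raised 6 integrin genes and lowered 1, where 34.9% of all tested genes passed. ITGB7 (2.54 ± 0.12, 5.83-fold), ITGAX (2.09 ± 0.11) and ITGAM (1.90 ± 0.12) had the largest rises. ITGA5 (0.82 ± 0.04), ITGB2 (0.60 ± 0.04) and ITGAL (0.49 ± 0.04) rose less, and ITGA4 (-0.68 ± 0.06) fell further. ITGB1 (0.19 ± 0.05) was under the fold limit. ITGA6 (0.95 ± 0.43, edgeR adjusted p = 0.0548) did not pass, but it did with upper-quartile factors (1.01, adjusted p = 0.0459), with no filter on low counts (0.93, adjusted p = 0.0433) and without either SNDX-50469 library (0.95, adjusted p = 0.0451 without replicate 1 and 0.0492 without replicate 2). These comparisons use the same combination libraries, so their values are given side by side only.

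Whether the effect of SNDX-50469 differed with and without OTX015 was tested as an interaction, in which a positive value means a more positive SNDX-50469 effect when OTX015 was present. It passed for 7 of the 10 integrin genes, 6 higher and 1 lower, where 24.2% of all tested genes passed. The excess was 1.01 ± 0.18 for ITGB7 (edgeR adjusted p = 4.62e-06), 1.00 ± 0.19 for ITGAX (edgeR adjusted p = 1.83e-05) and 0.72 ± 0.20 for ITGAM (edgeR adjusted p = 0.00332). ITGAM did not pass without MOLM13 control replicate 2 (0.60, adjusted p = 0.0617). ITGA5 (0.56 ± 0.06), ITGB1 (0.50 ± 0.07) and ITGB2 (0.41 ± 0.05) had a positive interaction and ITGA4 a negative one (-0.66 ± 0.08, edgeR adjusted p = 2.25e-10). ITGB1 had -0.31 under SNDX-50469 without OTX015 and 0.19 with it, both under the fold limit. The interaction of ITGAL (0.27 ± 0.06, edgeR adjusted p = 8.16e-05) was under the fold limit too, which it passed with all 18 libraries in 1 fit (0.33, adjusted p = 0.00606). That of ITGA6 (1.38 ± 0.72, edgeR adjusted p = 0.140) did not pass, but it did in limma-voom with quantile normalization (2.27, adjusted p = 0.0322) and without SNDX-50469 replicate 2 (4.19).

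The control cells of the 3 lines differed far more in some integrin genes than any drug changed them. MOLM13 control cells, set against OCI-AML3 controls, had 4 integrin genes higher and 4 lower, where 64.2% of all tested genes passed. ITGAL was at 435 and 468 CPM in MOLM13 controls, against 17.6 to 17.9 CPM in the 3 OCI-AML3 controls, a 25.4-fold difference (4.67 ± 0.06). ITGB7 was 20.4-fold higher (4.35 ± 0.21), and ITGAM (1.51 ± 0.14) and ITGAX (1.42 ± 0.15) were higher too. ITGA6 (-3.05 ± 0.34), ITGB1 (-1.38 ± 0.08), ITGA5 (-0.58 ± 0.05) and ITGB2 (-0.45 ± 0.06) were lower in MOLM13. ITGA6 was at 0.409 and 0.577 CPM in MOLM13 controls, against 3.89 to 4.52 CPM in OCI-AML3 controls.

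MV4-11 controls, set against OCI-AML3 controls, had 4 integrin genes higher and 5 lower, where 67.4% of all tested genes passed. ITGAL was 55.8-fold higher (5.80 ± 0.06) and ITGB7 37.6-fold higher (5.23 ± 0.18), and ITGA6 (-2.67 ± 0.30) was lower. MOLM13 controls, set against MV4-11 controls, had 2 integrin genes higher and 3 lower, where 63.5% of all tested genes passed. ITGAE (0.84 ± 0.12) and ITGAM (0.67 ± 0.15) were higher, and ITGAL (-1.14 ± 0.06), ITGB7 (-0.88 ± 0.15) and ITGAX (-0.55 ± 0.15) lower in MOLM13. ITGB2 (0.29 ± 0.06) was under the fold limit, which it passed without MV4-11 control replicate 2 (0.44), and ITGB1 (-0.18 ± 0.08) passed in limma-voom with quantile normalization (-0.34). ITGAX did not pass in limma-voom with quantile normalization (-0.17). ITGA4 did not pass in any of these contrasts, with 132 ± 6.94 CPM in MOLM13, 139 ± 12 CPM in MV4-11 and 139 ± 11.3 CPM in OCI-AML3 controls. Line, medium, depth and any batch cannot be told apart in these contrasts.

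Per kilobase of canonical transcript, the level order in MOLM13 controls was ITGB2 (183 ± 3.88 CPM per kb), ITGAL (88.0 ± 4.57), ITGA5 (64.3 ± 1.35), ITGB1 (25.0 ± 1.04), ITGA4 (19.5 ± 1.02), ITGAE (4.30 ± 0.31), ITGB7 (2.25 ± 0.11), ITGAX (0.90 ± 0.06), ITGAM (0.79 ± 0.09) and ITGA6 (0.0847 ± 0.0204). Only ITGAX and ITGAM overlapped within their SD, and ITGB1 and ITGA4, like that pair, changed places when the union of all exons was the length. In OCI-AML3 controls ITGB7 came last at 0.11 ± 0.02 CPM per kb, and ITGAL at 3.46 ± 0.02 lay below ITGAE at 3.92 ± 0.23. In MV4-11 controls ITGAL at 193 ± 8.32 lay above ITGB2 at 149 ± 15.5 CPM per kb.

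The alpha chains that share ITGB2 were compared as shares of their summed CPM per kb. ITGAM and ITGAX together made up 12% of that sum in both combination-treated MOLM13 libraries, against 1.84% and 1.93% in controls. They made up 3.38% and 3.58% in SNDX-50469-treated MV4-11 libraries, against 0.863% and 0.992% in controls, and 20.1% to 21.2% in treated OCI-AML3 libraries, against 14.1% to 16.1% in controls. The share in OCI-AML3 rested on little ITGAL, since the sum of the 3 alpha chains over ITGB2 was 0.0161 to 0.0165 in its controls, against 0.48 to 0.501 in MOLM13 controls. ITGAL remained the leading alpha chain of ITGB2 in each of the 18 libraries, at 78.8% of the sum or more.

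The ratio of ITGA5 to ITGA4, both partners of ITGB1, was 29.4 and 24.2 in combination-treated MOLM13 libraries (CPM per kb), against 3.37 and 3.22 in controls. It was 7.75 and 5.18 in SNDX-50469-treated MV4-11 libraries, against 3.22 and 3.06 in controls, and 4.80 to 5.14 in treated OCI-AML3 libraries, against 4.50 to 5.15 in controls. Of these 3 comparisons the groups overlapped in OCI-AML3 only. The ratio of ITGB7 to ITGB1, the beta chains that ITGA4 can use, was 0.96 and 0.739 in SNDX-50469-treated MV4-11 libraries, against 0.118 and 0.171 in controls. In MOLM13 it was 0.221 and 0.228 under the combination, 0.047 and 0.0408 under OTX015 and 0.333 and 0.318 under SNDX-50469, against 0.0895 and 0.0906 in controls. In OCI-AML3 it was 0.00214 to 0.00349 in treated libraries, against 0.0014 to 0.00202 in controls. These ratios describe transcripts, and chain pairing was not measured.

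**Figure D4:**
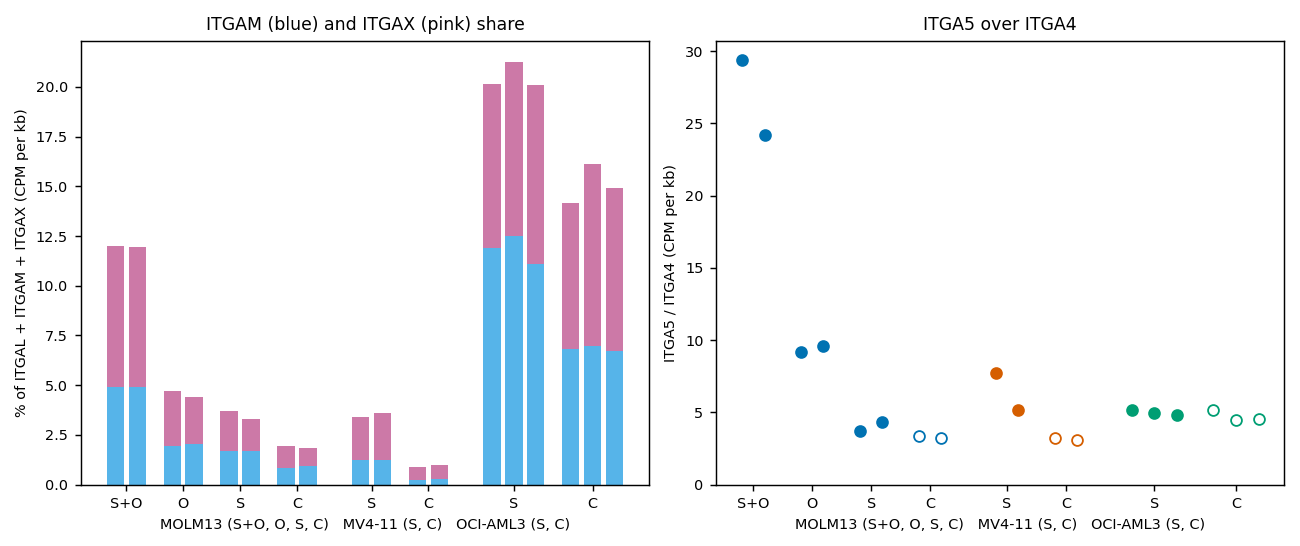
Left, stacked shares (%) of ITGAM and ITGAX in the summed CPM per kb of ITGAL, ITGAM and ITGAX, 1 bar per library. Right, the ratio of ITGA5 to ITGA4 (CPM per kb), 1 point per library, which reaches 24.2 and 29.4 in MOLM13 cells with both agents.

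The genes of the ITGB2-binding alpha chains share a stretch of chromosome 16 (GRCh38): ITGAL at 30472742 to 30523185, ITGAM at 31259975 to 31332877 and ITGAX at 31355176 to 31382999. ITGAM and ITGAX lie 22298 bases apart, and ITGAD follows 10335 bases after ITGAX. ITGAM and ITGAX passed in the same direction in each within-line comparison, while ITGAD had 0 to 3 counts in every library and ITGAL fell under OTX015. Some members overlap other genes, and without a known strand setting their reads cannot be told apart. ZNF740, which overlaps ITGB7 on chromosome 12, did not rise with it (0.01 ± 0.06 under SNDX-50469 in MOLM13 and 0.11 ± 0.15 in MV4-11). CERKL, which overlaps the end of ITGA4 on chromosome 2, fell as well, with -1.57 ± 0.11 under the combination in MOLM13 and -1.23 ± 0.17 under SNDX-50469 in MV4-11. ITGAE overlaps HASPIN and P2RX5, and ITGB2 overlaps ITGB2-AS1. In MOLM13 ITGB2-AS1 fell under OTX015 (-2.39 ± 0.58) and rose under the combination (1.23 ± 0.34). Under SNDX-50469 it did not pass in MOLM13 (0.49 ± 0.37) and rose in OCI-AML3 (0.50 ± 0.05), where ITGB2 did not pass. P2RX5 fell in MOLM13 under OTX015 (-1.92 ± 0.18) and the combination (-2.29 ± 0.19), while HASPIN did not pass in either.

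Other integrin genes, their activators and their ligands were taken from 4 lists. Of 16 other integrin subunits, 6 were tested in MOLM13, where SNDX-50469 raised 1 and lowered 2, OTX015 raised 3 and lowered 1, and the combination raised 4 and lowered 1. Of all tested genes 13.3%, 48.1% and 62.1% passed in these 3 comparisons. Their median log2 fold change under the combination was 1.08, that of the 10 leukocyte members 1.06, and that of all tested genes 0.0178. The raised genes and this median include ITGB3, which reached the filter on low counts only through the combination libraries, where it is high. The counts and median of this list are therefore a description only. ITGB5, a vitronectin receptor chain, fell under SNDX-50469 (-1.12 ± 0.14) and rose under OTX015 (1.51 ± 0.10). ITGB4, the partner of ITGA6 in hemidesmosomes, fell under SNDX-50469 (-0.90 ± 0.26), while ITGA11, a collagen receptor chain, rose (1.52 ± 0.46) on 21 to 41 counts in treated libraries, against 4 to 16 counts in controls. ITGB3, the platelet and vitronectin receptor chain, passed as higher under the combination, with 16 to 17 counts in combination libraries and 5 to 6 counts under OTX015, against 0 to 1 counts in controls, too few for a fold change.

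Among 21 activators and adaptors, of which 19 were tested in MOLM13, the combination raised 8 and lowered 4, a share near the 62.1% of all tested genes that passed. FERMT1, a kindlin that activates integrins, fell under the combination (-3.48 ± 0.10) and under OTX015 (-1.22 ± 0.07), and its interaction was -1.94 ± 0.13. RASGRP2, the exchange factor that loads RAP1 in inside-out activation, fell under the combination (-1.81 ± 0.05), and so did the adaptor gene PARVB (-1.48 ± 0.06). PXN, which encodes the focal adhesion adaptor paxillin, rose (1.85 ± 0.08), and FLNA, the actin crosslinker filamin A, rose under OTX015 (1.58 ± 0.04). ILK passed under SNDX-50469 (1.85 ± 0.67) and under the combination (2.14 ± 0.65), on only 6 to 18 and 13 counts in treated libraries, against 2 to 4 counts in controls. It reached the filter on low counts through treated libraries, so its rise, which is among the 8, is a description only. In SNDX-50469-treated OCI-AML3 cells RASGRP2 (-0.59 ± 0.03) and FERMT1 (-0.48 ± 0.04) fell, and in MV4-11 PARVB fell (-0.58 ± 0.16).

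All 10 signalling kinases and partners were tested in each line. SNDX-50469 raised 2 and lowered 1 in MOLM13, raised 3 and lowered 0 in MV4-11, and raised 1 and lowered 0 in OCI-AML3, where 13.3%, 20.7% and 13.1% of all tested genes passed. FGR, a SRC family kinase of myeloid cells, rose in MOLM13 (1.59 ± 0.20) and MV4-11 (1.09 ± 0.17) and fell under OTX015 in MOLM13 (-2.28 ± 0.35), and it did not pass in OCI-AML3 (-0.31 ± 0.24). FYB1, an adaptor that links receptors to integrin activation, rose under SNDX-50469 in MOLM13 (0.73 ± 0.11) and MV4-11 (0.62 ± 0.16) but did not pass in OCI-AML3 (-0.02 ± 0.04), and it fell under OTX015 in MOLM13 (-1.83 ± 0.16). PTK2, the focal adhesion kinase, fell under SNDX-50469 in MOLM13 (-0.65 ± 0.13) and rose in OCI-AML3 (0.66 ± 0.05), and the test of that difference in response passed (1.33 ± 0.14 for OCI-AML3 minus MOLM13, edgeR adjusted p = 1.87e-06). In MV4-11 PTK2 did not pass (-0.29 ± 0.16), and under OTX015 in MOLM13 it rose (1.33 ± 0.11). Set against OTX015 alone, the combination raised 7 of the 10 and lowered 0, where 34.9% of all tested genes passed. The interaction passed as positive for 7 and as negative for 0, with SRC at 1.17 ± 0.25, where 24.2% of all tested genes passed.

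Of 15 ligands and lateral partners, 11 were tested in MOLM13, and the combination raised 2 and lowered 3 there, where 62.1% of all tested genes passed. F11R, a junctional adhesion molecule that binds LFA-1, rose under the combination in MOLM13 (1.98 ± 0.08), and under SNDX-50469 in MOLM13 (0.48 ± 0.09), MV4-11 (1.04 ± 0.18) and OCI-AML3 (1.02 ± 0.06). ICAM1, the ligand of LFA-1 and Mac-1, rose in OCI-AML3 (0.94 ± 0.07) and in SNDX-50469-treated MOLM13 cells (0.36 ± 0.14) and fell in MV4-11 (-0.71 ± 0.16), and in MOLM13 it was higher with the combination than with OTX015 alone (1.66 ± 0.14, with an interaction of 1.29 ± 0.20). The tetraspanin gene CD151 fell under SNDX-50469 in MOLM13 (-0.54 ± 0.06). CD9, another tetraspanin, rose in MV4-11 (1.42 ± 0.30) and OCI-AML3 (0.57 ± 0.07) and fell in MOLM13 under OTX015 (-2.39 ± 0.61, on 2 and 4 counts) and the combination (-1.37 ± 0.53). ICAM3 rose in MV4-11 (1.04 ± 0.33) and in SNDX-50469-treated MOLM13 cells (0.44 ± 0.12). In OCI-AML3, ITGA3 rose (2.25 ± 0.32) on 27 to 33 counts in treated libraries, against 3 to 9 counts in controls, and ITGB8 (1.22 ± 0.40) on 11 to 32 counts, against 8 to 9 counts in controls. Both genes reached the filter on low counts through the treated libraries, so their rises are a description only.

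As a description over the 8 group means of log2 CPM, where the groups of a line share all that sets that line apart, the genes most like ITGAL were ENSG00000262370, NPM2 and NFAM1 (Pearson r of 0.995 or more). ITGB1 was followed by SGPP1, PHTF2 and THUMPD3-AS1 (r of 0.989 to 0.991), ITGA5 by genes that included IQGAP1 and SPICE1 (0.963 to 0.968), and ITGB2 by ASAH2B, ENSG00000242687.2 and ENSG00000243155 (0.967 to 0.971).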

How the data were processed

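Total RNA of 18 cultures was treated with DNase I and sequenced as paired-end Illumina libraries. The authors deposited raw counts, 1 whole number per gene ID and library, not normalized. STAR and hg38 stand in the submitters' processing notes, but TopHat2 and Cufflinks2 in the study's methods, and it is unsure which of these aligners was used. How reads were counted per gene, on which strand and with what annotation was not given in the sources used here. In all, 40931 of 58037 IDs had a symbol (IDs without one held 0.377% of counts), and 0 columns were left out. Totals ran from 19320216 to 59711884 counts, and a count of 0 allows up to 3 counts (0.0502 to 0.1553 CPM). Such floors cover counting error only.

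The test was edgeR's quasi-likelihood F test (edgeR 4.0.16 with limma 3.58.1 in R 4.3.3) after filterByExpr and TMM scaling, in 1 group-means model per line, and in 1 model of all 18 libraries for contrasts between lines. The Benjamini-Hochberg adjusted p limit was 0.05 over all tested genes, with the study's own fold limit (0.322 on the log2 scale). The study used limma. The SE is the log2 fold change over the square root of F. The fit was tested on simulated data. No replicate pair was identical, and chi-square per degree of freedom was 1.5 to 49.1, highest in MV4-11. CPM per kb used canonical transcript lengths of GENCODE v44 (lifted to GRCh37, lengths only). Positions and promoters are from RefSeq GRCh38.p14, the build that hg38 denotes.

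The members and lists were chosen with earlier results of these data known. The text names all 10 members, and from the 4 lists up to 4 genes with the largest rise and up to 4 with the largest fall per within-line comparison, provided that they passed. Overlapping genes were added after values were seen, and Y-linked genes were left out of the likeness ranking. In addition, 1 gene of that ranking and 1 marker gene are not reported here. The comparisons within MOLM13 share control libraries. Alternatives were DESeq2 1.42.0, limma-voom, other scaling, no filter, no fold limit, a replicate block, 1 fit of all libraries and leaving out each library. In a group of 2 the lone remaining library is assumed to vary like the other groups.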

Additional observations from a re-analysis of the deposited data

Results flagged for a closer look

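The effect of SNDX-50469 in MOLM13 cells differed with OTX015 present and absent for 8 of the 10 integrin genes by the edgeR interaction test at an adjusted p below 0.05, of which 7 also passed the fold limit. Of all 14360 tested genes 4871 had an adjusted p below 0.05 and 24.2% passed both limits. The log2 interaction was 0.72 for ITGAM, 1.00 for ITGAX, 1.01 for ITGB7, 0.41 for ITGB2, 0.50 for ITGB1, 0.56 for ITGA5 and -0.66 for ITGA4, and it was 0.27 for ITGAL, under the fold limit, which ITGAL passed with all 18 libraries in 1 fit (0.33). All 8 use the same 8 libraries.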

How the results depend on the processing

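Of 1211 alternative values of integrin results that passed, 1206 kept direction and call, 5 lost the call and 0 changed sign, while 28 of the others gained a call. Many of these values leave out a library outside the comparison, which can change it only through the shared fit. The tally is therefore no measure of robustness. The losses were ITGA6 under the combination against control (1.24) and against SNDX-50469 (1.01), the ITGAM interaction (0.60), and in limma-voom ITGAL (combination against SNDX-50469, -0.30) and ITGAX (control, MOLM13 against MV4-11, -0.17). With no fold limit, SNDX-50469 changed 7 integrin genes and 4691 genes in all in MOLM13, and 6338 genes in all in OCI-AML3. With all 18 libraries in 1 fit MV4-11 had 5934 called genes. Leaving out 1 library gave 1637 to 3340 called genes in MV4-11 (fewest without SNDX-50469 replicate 1), and 462 to 1036 genes and 0 to 1 integrin genes in the difference in response between OCI-AML3 and MOLM13. Depth limits ITGA6 in MOLM13 and MV4-11 and ITGB7 in OCI-AML3, and 2 libraries per group limit MOLM13 and MV4-11.

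Sign changed only for values that did not pass. Under SNDX-50469 in MOLM13, ITGA4 became 0.0026 with upper-quartile and 0.0270 with no scaling, and ITGAE became -0.0068 in DESeq2, -0.0191 with no filter, -0.0109 in limma-voom and -0.0173 in the fit of all libraries. In MV4-11, ITGB2 became -0.0051 in DESeq2 and -0.0157 in the fit of all libraries, and ITGA6 became 0.0037 with upper-quartile and 0.0270 with no scaling. In OCI-AML3, ITGB2 became 0.0425 with no scaling, 0.0009 with no filter and 0.0714 in limma-voom, ITGB1 became 0.0217 with no scaling and 0.0532 in limma-voom, and ITGA4 became 0.0025 in limma-voom. In the difference in response ITGA4 became 0.0023 in limma-voom. Between control cells, ITGAE (MOLM13 against OCI-AML3) became -0.0668 with no scaling, ITGA4 (MV4-11 against OCI-AML3) became -0.0440 with no scaling and -0.0758 with no filter, and for MOLM13 against MV4-11 ITGA5 became 0.0250 with no filter and ITGA6 became 0.2748 in limma-voom. The cause was not tested.

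With 1 library left out, SNDX-50469 in MOLM13 gave -0.0931 to 0.0404 for ITGA4, -3.24 to 0.44 for ITGA6 and -0.15 to 0.15 for ITGAE, and the ITGAE interaction ran from -0.27 to 0.0308. MV4-11 gave -0.12 to 0.13 for ITGB2 and -0.53 to 0.32 for ITGA6, and OCI-AML3 gave -0.0193 to 0.0047 for ITGB2 and -0.0677 to 0.0062 for ITGB1. The difference in response ran from -0.0308 to 0.21 for ITGAM, -0.0802 to 0.0626 for ITGA4, -0.12 to 3.62 for ITGA6 and -0.0037 to 0.29 for ITGAE. Between controls, ITGA4 ran from -0.11 to 0.0858 (MV4-11 against OCI-AML3) and -0.16 to 0.0549 (MOLM13 against MV4-11), and ITGA5 from -0.0492 to 0.0859 (MOLM13 against MV4-11).

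Deviations of libraries with the same replicate number correlated at -0.032 to 0.001 in MOLM13, 0.080 in MV4-11 and 0.013 to 0.034 in OCI-AML3. In OCI-AML3, libraries of unlike number correlated at -0.033 to 0.020. Values this small cannot exclude a pairing, so whether the numbers pair the samples was not settled. A replicate block changed 1 integrin call, ITGAL in MV4-11 (-0.43, adjusted p = 0.0438).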
